A study of Danio rerio with 6 samples.

Results

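The genes for the proteins of the cytosolic ribosome were followed by RNA-seq in cd41-positive blood cells of zebrafish embryos, in ddx41 mutants and in wildtypes. A gene was a member when its symbol is that of a numbered rpl or rps gene, with or without an ending such as a, l or l1, or rpsa or a stalk gene (rplp0, rplp1, rplp2, rplp2l). Of 32105 genes counted, 80 met this rule, 46 for the large and 34 for the small subunit. They lie on all 25 chromosomes, with 1 on an unplaced sequence. Symbols are printed as the name table gives them, many in upper case after the human orthologue, and copies that share a symbol are told apart by their identifier.

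The ddx41 mutant group and the wildtype group had 3 libraries each, all from embryos aged 40 hours after fertilization. Sample titles name a cd41 GFP reporter, whose gene, itga2b, encodes an integrin chain of thrombocytes (the fish counterpart of platelets) and of blood stem and progenitor cells. The mutant allele, the number of embryos behind a library and the clutches are not given in the sources used here, so a p-value here reflects the spread of these libraries alone, which may be technical. DDX41, an RNA helicase of the DEAD-box family, is altered in some human myeloid leukaemias. Its own level was not analysed here, and the labels of genotype stand unchecked in that respect.

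A ribosome has a large and a small subunit, each an assembly of ribosomal RNA with many proteins, most of them present in a single copy per ribosome. Their messenger RNAs are among the most abundant of dividing cells, and in vertebrates most begin with a pyrimidine tract through which their translation is set together. Blood is known for its sensitivity to their dosage: in people, inherited loss of a single copy of certain ribosomal protein genes causes Diamond-Blackfan anaemia, in which few red cells form. Free ribosomal proteins that are not built into ribosomes, RPL5 and RPL11 above all, bind the ubiquitin ligase MDM2 and so stabilise p53.

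Counts on genes totalled 14577735 to 15912260 in mutant libraries and 17001423 to 17639699 in wildtype libraries. The sorted marker itga2b was low, at 2.62, 4.33 and 6.44 CPM in mutants against 3.22, 1.179 and 1.603 CPM in wildtypes (CPM, counts relative to library size, here scaled between libraries by edgeR's TMM factors). Markers of other blood cells differed between the genotypes. Of 12 erythroid genes tested, 10 rose (edgeR adjusted p below 0.05, where 3.34% of all genes tested rose and 1.99% fell). Their summed level was 5612 to 19250 CPM in mutants against 413.3 to 2832 CPM in wildtypes. Of 8 myeloid genes 1 fell in edgeR, LCP1, but all 8 had negative log2 fold changes, with a median of -1.18. Of the 8, 7 were lower without overlap and limma voom called 8 lower (13.4% and 7.22% of all genes tested). Their sums were 8177 to 11390 CPM in mutants against 14490 to 28990 CPM in wildtypes. No gene of these 2 lists was at 0 in any library. Of 7 thrombocyte genes 5 rose (sums of 170.4 to 563.5 CPM in mutants against 46.99 to 107.7 CPM in wildtypes). The thrombopoietin receptor gene mpl pointed the other way, with 0.635, 4.85 and 1.53 CPM in mutants against 8.5, 23.6 and 13.3 CPM in wildtypes (log2 fold change -2.68, edgeR adjusted p = 0.0688, limma voom adjusted p = 0.0156). Of 7 genes of blood stem and progenitor cells 1 rose in edgeR, TAL1, while 5 had negative log2 fold changes and the median was -0.628 (sums of 171.9 to 367.1 CPM in mutants against 148.8 to 343.9 CPM in wildtypes). All 3 lens genes tested rose, the list summing to 28.3 to 106.9 CPM in mutants against 1.53 to 6.58 CPM in wildtypes, and CRYAA was at 0 in every wildtype library and in mutant replicate 1. What part this makeup has in the values of the ribosomal protein genes was not tested, and in bulk samples fewer cells of a type and less RNA per cell cannot be told apart.

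To determine whether the transcripts of the ribosome differ between ddx41 mutant and wildtype cells, all genes with enough counts were tested, and the ribosomal protein genes were read from that fit. No ribosomal protein gene passed the main test. Of the 80, 79 passed the filter on low counts, and among these 0 rose and 0 fell (adjusted p below 0.05 in edgeR's quasi-likelihood test), where 3.34% of all genes tested were higher and 1.99% lower. At an unadjusted p below 0.05 edgeR named 1 as higher, RPL22, and 1 as lower, RPL22L1, against 11.9% and 10.9% of all genes. DESeq2 called 0 in either direction (background 6.93% and 6.24%). In limma voom with sample weights, the same 2 genes passed, RPL22 as higher (adjusted p = 0.0345) and RPL22L1 as lower (adjusted p = 0.0499), where voom called 7.8% and 7.22% of all genes. The member left out by the filter was rps27l, whose human counterpart is a p53 target. It is the member on an unplaced sequence, and it had 0 counts in all 6 libraries. In these libraries 3 counts would be 0.191 to 0.238 CPM in mutants and 0.155 to 0.186 CPM in wildtypes. Whether its fragments were lost in mapping was not tested.

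The fold changes were small and leaned to the positive side. Their median was a log2 fold change of 0.146 over the 79 genes, against 0.0211 over all 18722 genes tested. Of the 79, 62 were above and 17 below 0, where of all genes tested 9550 were above and 9172 below. The median was 0.175 for the 46 large subunit genes and 0.117 for the 33 tested small subunit genes, and single values ran from -0.607 (RPL22L1) to 0.644 (RPL22). The position of 0 depended on how libraries were scaled, while the members' median stayed above that of all genes under each scaling. With library totals in place of TMM factors the median was 0.0236 over the members, 0.0534 over the large and -0.00465 over the small subunit genes, while that of all genes moved to -0.123. Scaled to the summed counts of the members it was 0.0389, with all genes at -0.113. The share of all calls that were higher in mutants was 62.6% with TMM, 44.7% with library totals and 48.6% scaled to the members. The lean above all genes depended on single wildtype libraries. Without wildtype replicate 1 the median was 0.088 over the members and 0.0879 over all genes tested, so no lean remained. Leaving out wildtype replicate 2 gave 0.296 over the members against 0.0135 over all genes, and leaving out wildtype replicate 3 gave 0.0662 against 0.0396.

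Precision limited which fold changes could be called. For 74 of the 78 members with at least 10 counts in every library, the 95% interval of the fold change excluded a 2-fold difference in either direction. The median standard error was 0.241 (log2) in the edgeR fit, and 0.146 when taken from each member's own replicates alone. Replicates of a genotype differed by a median SD of 0.179 (log2 CPM) for members and 0.52 for all genes tested. The genes tested reach down to the filter's minimum count of 10, far below most members, and no genes of like abundance were compared. Simulated counts of this mutant against wildtype comparison covered 18722 genes. In them edgeR called 0% of 30 members changed 1.5-fold and 5% of 20 members changed 2-fold. Fewer genes were changed in the simulation than were called in the data, which makes the adjusted threshold stricter. The simulated spread between replicates was also partly borrowed from other genes, while the members' own replicates gave the smaller standard error of 0.146. These rates may therefore understate what the real fit could call.

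**Figure D1:**
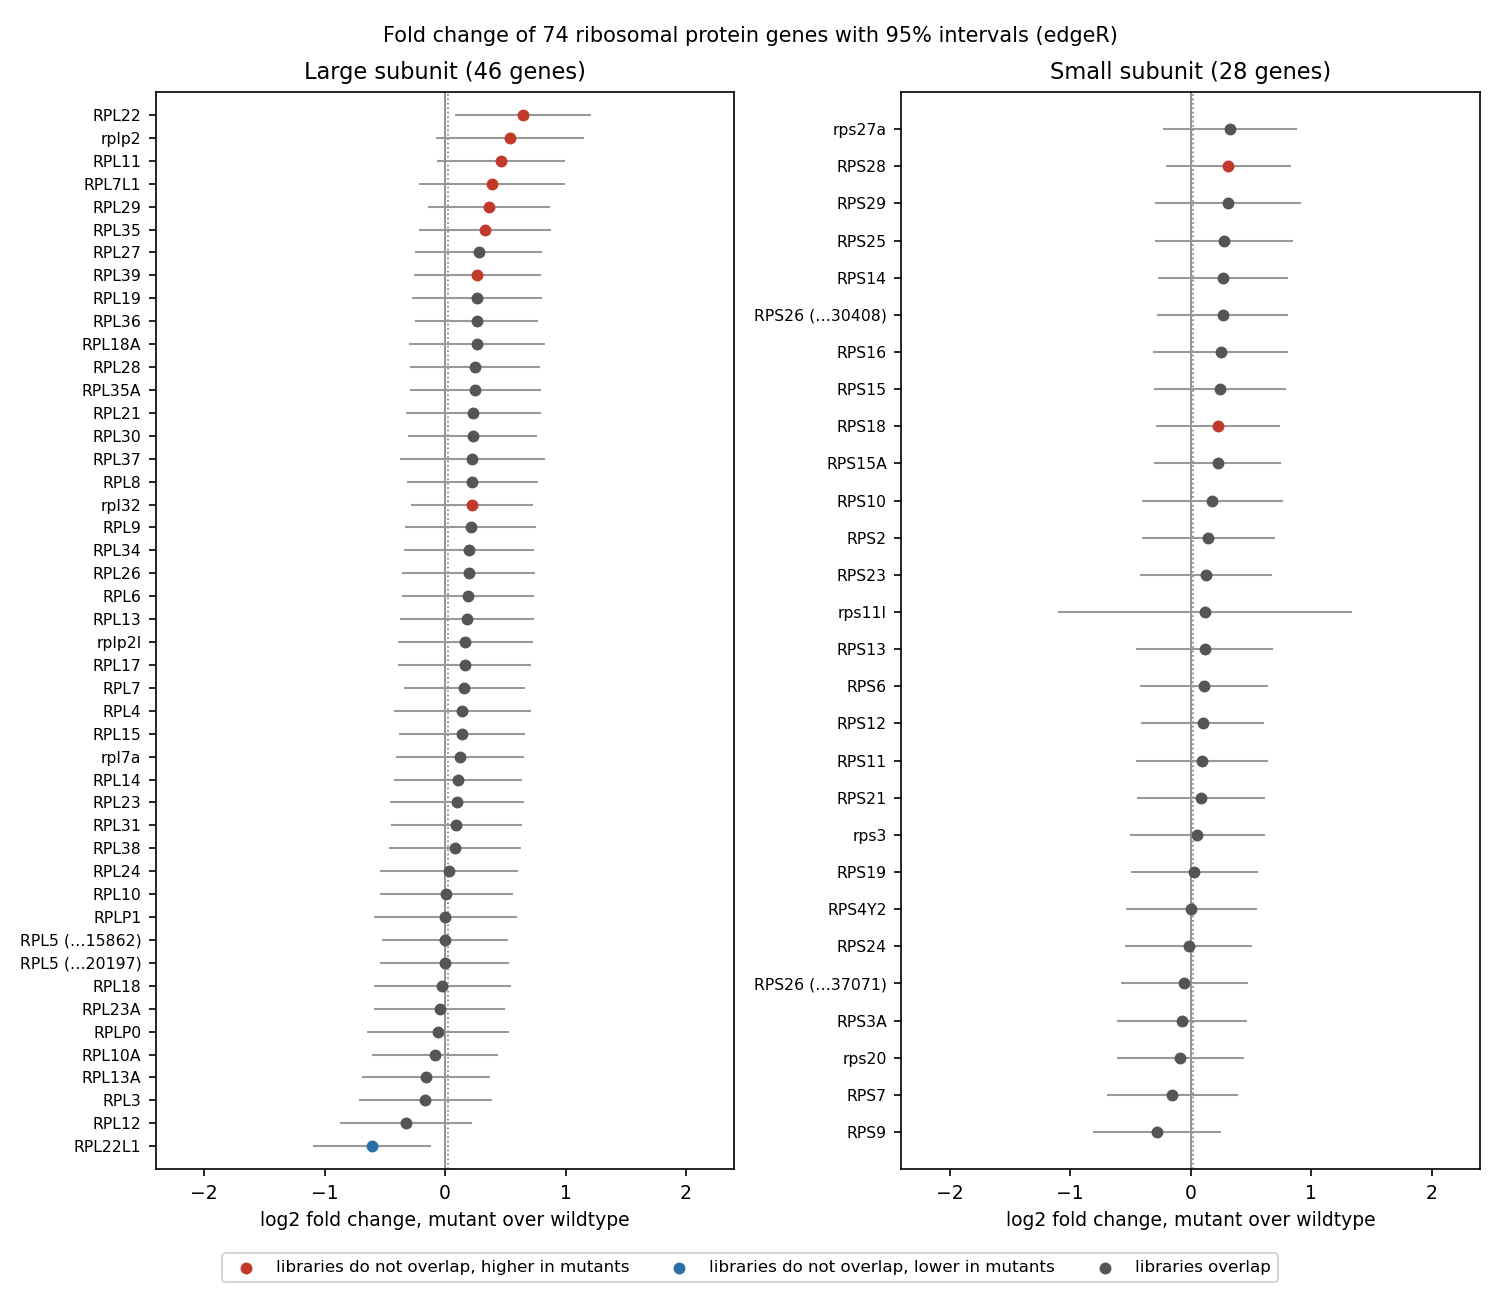
Log2 fold change of ddx41 mutant over wildtype for 74 of the 79 ribosomal protein genes tested (points) with 95% intervals (lines), large subunit genes on the left and small subunit genes on the right, each ordered by fold change. The solid line marks 0 and the dotted line the median of all genes tested, 0.0211; colours give whether the 3 mutant and 3 wildtype libraries overlap in CPM, and copies that share a symbol carry the last digits of their identifier. Most points lie between 0 and 0.4, with RPL22 at the top and RPL22L1 at the bottom of the large subunit.

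Taken gene by gene, the mutant and wildtype libraries did not overlap in CPM for 10 members that were higher in mutants, 12.7% of the 79 against 15.3% of all genes tested. They were RPL11, RPL22, RPL29, RPL35, RPL39, RPL7L1, rpl32 and rplp2 of the large subunit and RPS18 and RPS28 of the small subunit. Of these, RPL29, RPL7L1, RPS18 and RPS28 overlapped when taken as shares of the summed member counts. RPL22L1 alone was lower without overlap, 1.27% of the members against 13.4% of all genes. Neither share exceeded that of all genes.

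RPL22 and RPL22L1 stood at opposite ends. RPL22 encodes a large subunit protein that also binds other RNAs, and RPL22L1 its paralogue, which can take its place in the ribosome. In mice loss of Rpl22 is accompanied by more Rpl22l1, and in zebrafish both genes are known to take part in the emergence of blood stem cells. RPL22 (ENSDARG00000070437, chromosome 11, 29405282 to 29410773, GRCz10) had 573.7, 790.5 and 668.7 CPM in mutants against 398, 513.5 and 389.3 CPM in wildtypes. The lowest mutant library lay above the highest wildtype library. The log2 fold change was 0.64 ± 0.25 (SE), or 1.56-fold with a 95% interval of 1.06 to 2.31 (edgeR adjusted p = 0.166).

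RPL22L1 (ENSDARG00000010244, chromosome 24, 26330141 to 26334800) had 192.9, 213.9 and 183.3 CPM in mutants against 302.2, 308.3 and 288.3 CPM in wildtypes. The replicates of each genotype lay close together, and the highest mutant library was below the lowest wildtype library. The log2 fold change was -0.61 ± 0.22 (SE), a level 1.52-fold lower (edgeR adjusted p = 0.14). Without any 1 of the 6 libraries it stayed between -0.671 and -0.553, and that of RPL22 between 0.519 and 0.776.

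Within a library, the share of RPL22L1 in the counts of the pair needs no scaling between libraries. It was 25.2%, 21.3% and 21.5% in mutants against 43.2%, 37.5% and 42.5% in wildtypes, so that the paralogue made up 22.7% ± 2.17 of the pair in mutants and 41.1% ± 3.1 in wildtypes (SD, n = 3 each). The log2 ratio of RPL22L1 over RPL22 was lower by 1.25 in mutants, a 2.38-fold difference, and by 1.19 to 1.36 when any 1 library was left out. The exons of the pair are nearly equal in length (798 bases for RPL22 and 787 for RPL22L1), and neither overlaps the exons of another gene. The pair was singled out as the 2 members with the smallest p, so its ratio is a description and has no test.

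**Figure D2:**
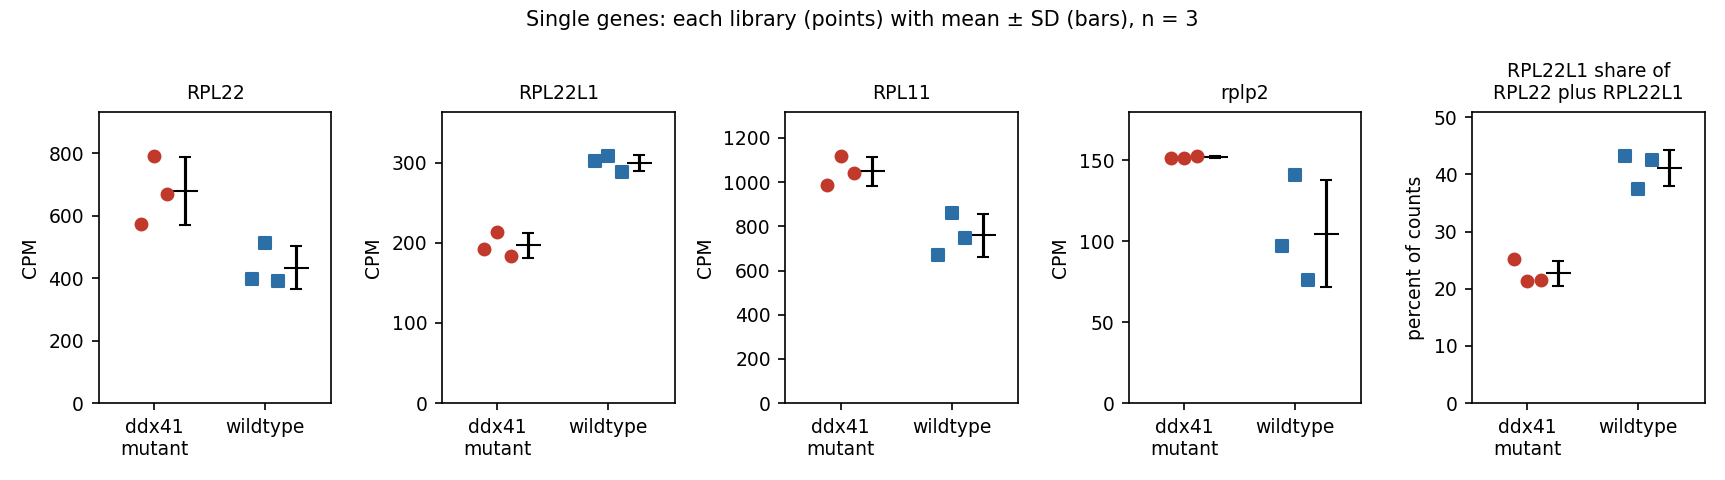
CPM of RPL22, RPL22L1, RPL11 and rplp2 and, at the right, the percent of the summed counts of RPL22 and RPL22L1 that fell on RPL22L1, in each of 3 ddx41 mutant libraries (red circles) and 3 wildtype libraries (blue squares), with the mean ± SD beside them. In all 5 panels the genotypes do not overlap; RPL22L1 made up 21.3% to 25.2% of the pair in mutants against 37.5% to 43.2% in wildtypes.

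The other members with a near relative in the list gave 7 more such pairs, and the genotypes were apart in 2 of them, so in 3 of 8 in all. Among single genes tested, 15.3% were higher and 13.4% lower in mutants without overlap in CPM. The share over other gene pairs was not computed, and the RPL22 pair had been singled out for its small p. The stalk gene rplp2 had 151.5, 151.5 and 152.7 CPM in mutants against 96.89, 140.9 and 76.03 CPM in wildtypes (ENSDARG00000101406, chromosome 6, 49510152 to 49511900). Mutant libraries were alike, while wildtype replicate 2 came near them. Its log2 fold change was 0.54 ± 0.27 (SE, edgeR adjusted p = 0.279). It made up 13.1%, 13.1% and 12.8% of the counts of rplp2 and rplp2l in mutants against 10.6%, 11.1% and 8.98% in wildtypes.

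RPS26, a small subunit protein near the exit of the messenger RNA, is listed in 2 copies. The copy ENSDARG00000037071 held 31.1%, 35.9% and 33.8% of their counts in mutants against 38%, 37.7% and 41% in wildtypes, again without overlap but by a smaller margin. In the other 5 pairs the genotypes overlapped. RPL7L1, which in human cells acts in the nucleolus on precursors of the large subunit, made up 5.91%, 5.16% and 4.75% of its pair with RPL7 in mutants against 4.19%, 4.62% and 4.8% in wildtypes. The minor RPL5 copy made up 27.5%, 22.8% and 23.4% in mutants against 23%, 24.8% and 25.1% in wildtypes. Fragments that map equally well to both copies of a pair may have been lost, so these shares are uncertain where copies are near identical.

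The 5S particle is the part of the large subunit that holds RPL5, RPL11 and the 5S ribosomal RNA. RPL11 (ENSDARG00000043509, chromosome 19, 44185328 to 44191343) had 985.9, 1118 and 1040 CPM in mutants against 670.3, 862.3 and 746.7 CPM in wildtypes. All mutant libraries lay above all wildtype libraries, with a log2 fold change of 0.46 ± 0.24 (SE, edgeR adjusted p = 0.28). Its partner RPL5 showed no such gap: the more abundant copy (ENSDARG00000020197) had 963.6, 1209 and 1056 CPM in mutants against 961.3, 1135 and 1140 CPM in wildtypes, and the other copy 365.4, 357 and 322.1 CPM in mutants against 286.9, 375 and 382.6 CPM in wildtypes. For RPL5 the 95% intervals ran from -0.54 to 0.53 and from -0.53 to 0.53 (log2). RPL23, a further large subunit protein that binds MDM2, had 258.3, 288 and 284.5 CPM in mutants against 222.2, 328.6 and 224.2 CPM in wildtypes, which overlap. The difference between RPL11 and RPL5 in their fold changes was not tested.

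Most p53 targets rose in the same libraries. Of 11 tested, 6 rose and 0 fell (edgeR adjusted p below 0.05, background 3.34% and 1.99%), with a median log2 fold change of 1.32. The stress gene sesn2 was lower without overlap, at 13.65, 6.4 and 8.35 CPM in mutants against 16.9, 16.69 and 16.34 CPM in wildtypes, and was called by limma voom (adjusted p = 0.0441) but not by edgeR (adjusted p = 0.233). The p53 antagonist gene mdm2 had 316.2, 462.1 and 395.5 CPM in mutants against 55.7, 50.89 and 48.46 CPM in wildtypes (7.57-fold, edgeR adjusted p = 0.00225). Whether the levels of RPL11 and of these genes are linked was not tested.

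The stalk, a flexible arm of the large subunit that recruits translation factors, is built of RPLP0, RPLP1 and the RPLP2 proteins on a base that includes RPL12. RPLP0 had 1127, 989.5 and 847.7 CPM in mutants against 996.2, 1265 and 834.7 CPM in wildtypes. RPLP1 had 411.6, 398.4 and 449.2 CPM in mutants against 320.2, 548.8 and 388.2 CPM in wildtypes. Both overlapped, with log2 fold changes of -0.06 ± 0.26 and 0.002 ± 0.265 (SE). RPL12 had 1035, 850.1 and 752.1 CPM in mutants against 1095, 1201 and 1011 CPM in wildtypes. Mutant replicate 1 fell within the wildtype range, and the log2 fold change was -0.33 ± 0.24 (SE, edgeR adjusted p = 0.474). The abundant RPLP2 gene, rplp2l, had 1009, 1007 and 1036 CPM in mutants against 815.9, 1129 and 770.6 CPM in wildtypes. In CPM, only the minor rplp2 thus separated the genotypes among these 5 genes. As a share of the summed member counts RPL12 was apart too. It took 1.92%, 1.44% and 1.39% in mutants against 2.32%, 1.99% and 2.17% in wildtypes.

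Genes whose human counterparts are mutated in Diamond-Blackfan anaemia had fold changes in the range of the other members. Of 21 genes in this list, 21 were tested and 0 were called, the median log2 fold change was 0.138, and 3 were higher without overlap, RPL11, RPL35 and RPS28, where 15.3% of all genes tested were. RPS19, the gene most often mutated in that disease, had 307.1, 328.2 and 304.2 CPM in mutants against 295.6, 362.9 and 260.5 CPM in wildtypes. The mutant values lay inside the wildtype range (log2 fold change 0.03 ± 0.23, SE, with a 95% interval of -0.49 to 0.56). RPS28 had 343.2, 365.4 and 318.6 CPM in mutants against 289, 303.5 and 233.8 CPM in wildtypes. The remaining log2 fold changes ran from -0.15 (RPS7) to 0.33 (RPL35), with RPS24 at -0.02, RPS10 at 0.18, RPL35A at 0.25 and RPS29 at 0.31.

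RPL29, a large subunit protein, had 329.9, 404.7 and 354.3 CPM in mutants against 296.2, 293.7 and 255 CPM in wildtypes. RPL7L1 was scarce, with 31.2, 27.78 and 24.68 CPM in mutants against 18.59, 24.08 and 21.31 CPM in wildtypes. In CPM both were higher in every mutant library than in any wildtype library, by log2 fold changes of 0.37 ± 0.22 and 0.39 ± 0.27 (SE). As shares of the summed member counts, both overlapped between the genotypes. Neither passed the test (edgeR adjusted p = 0.379 for RPL29 and 0.439 for RPL7L1).

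Together the members took a like share of each genotype's counts. It was 4.66%, 5.75% and 5.53% in mutants against 5.08%, 5.71% and 5.24% in wildtypes, or 5.31% ± 0.577 in mutants and 5.34% ± 0.33 in wildtypes (SD, n = 3 each). The lowest and the highest of the 6 libraries were both mutant. Transcripts of the mitochondrial genome took 26.5% to 30.7% of counts in mutants against 21.3% to 27.5% in wildtypes, and globins 0.919% to 3.33% in mutants against 0.0612% to 0.562% in wildtypes. Without the mitochondrial genome the members' share was 6.72%, 7.91% and 7.52% in mutants against 7.01%, 7.46% and 6.66% in wildtypes, which again overlap. In summed CPM the members held 53900, 59110 and 53950 in mutants against 47270, 60260 and 46570 in wildtypes, with wildtype replicate 2 the highest of all.

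The share of all counts on large subunit genes overlapped between the genotypes, at 2.7%, 3.35% and 3.21% in mutants against 2.88%, 3.27% and 3.03% in wildtypes. Their ratio to the small subunit genes was slightly higher in mutants. Summed counts of large over small subunit genes gave a ratio of 1.38, 1.4 and 1.39 in mutants against 1.31, 1.34 and 1.37 in wildtypes. The genotypes did not overlap, and the means were 1.386 ± 0.00934 in mutants and 1.341 ± 0.0309 in wildtypes (SD, n = 3 each), a ratio of 1.03 between them. The separation was narrow: without the most abundant gene of each subunit the ratios ran from 1.43 to 1.45 in mutants against 1.38 to 1.43 in wildtypes and overlapped, as did the mean log2 CPM of large minus small subunit genes (0.29 to 0.348 in mutants against 0.251 to 0.329 in wildtypes).

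**Figure D3:**
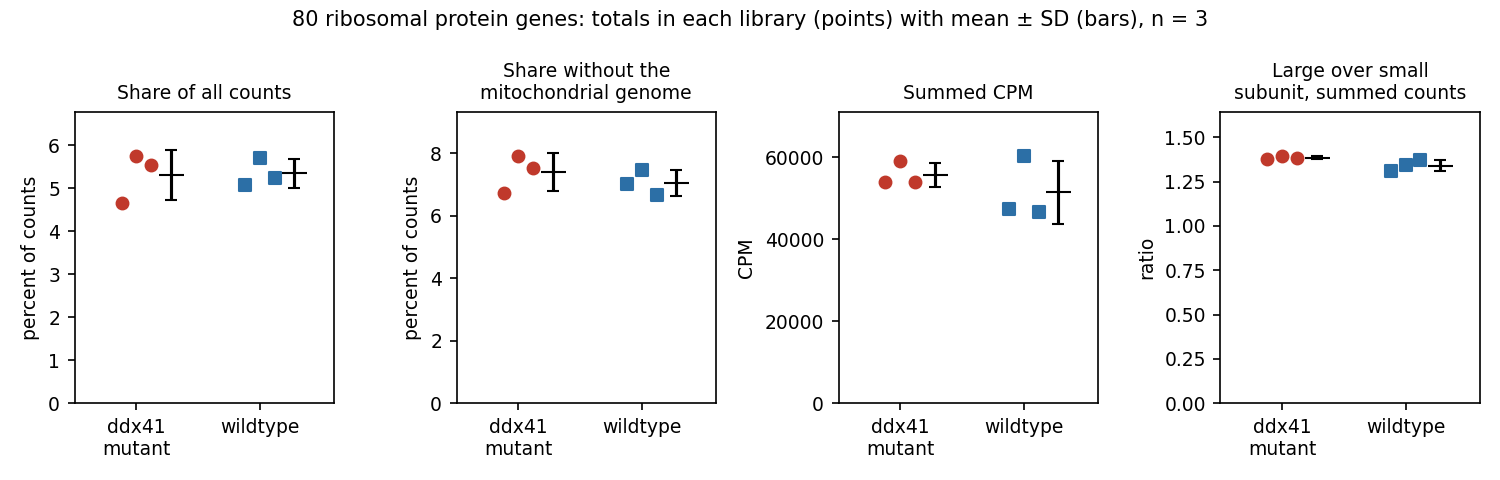
Totals over the 80 ribosomal protein genes in each of 3 ddx41 mutant libraries (red circles) and 3 wildtype libraries (blue squares), with the mean ± SD beside them: percent of all counts, percent of counts without the mitochondrial genome, summed CPM, and the ratio of summed large over small subunit counts. The first 3 panels overlap between genotypes; the ratio does not, with 1.38 to 1.4 in mutants against 1.31 to 1.37 in wildtypes.

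Scaling each library to its summed member counts shows the makeup of the ribosomal protein transcripts free of how much of them a library holds. This scaling was chosen after the data had been seen. The median replicate SD of a member was 0.089 (log2) on this scale. Of the 78 members with at least 10 counts in every library, 16 (20.5%) then lay higher in mutants without overlap and 14 (17.9%) lower. Of all genes on the same scale, 11.8% and 16.5% did. These shares are not a like comparison, because dividing by the members' own sum takes out variation that members share but other genes do not. Member shares also add up to a fixed total, so some must fall when others rise. Of the large subunit genes 13 were higher and 6 lower, and of the small subunit genes 3 were higher and 8 lower. No difference between the subunits was tested, and on this scale edgeR again called 0 members in either direction.

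The members apart on this scale included abundant ones. RPS7, a small subunit protein, took 2.65%, 2.51% and 2.82% of member counts in mutants against 3.19%, 3.21% and 3.18% in wildtypes. RPS3A, which had the most counts of any member, took 3.16%, 3.33% and 3.33% in mutants against 3.87%, 3.59% and 3.75% in wildtypes. Both small subunit genes held a smaller share in every mutant library than in any wildtype library. On the other side, RPL35 took 2.42%, 2.65% and 2.57% in mutants against 2.41%, 2.13% and 2.06% in wildtypes, with mutant replicate 1 barely above wildtype replicate 1. RPL11 took 1.83%, 1.89% and 1.93% in mutants against 1.42%, 1.43% and 1.6% in wildtypes. Both subunits had abundant genes on either side. RPL3 of the large subunit was lower without overlap, at 2.13%, 2.13% and 2.14% in mutants against 2.32%, 2.54% and 2.93% in wildtypes. The small subunit gene rps27a was higher without overlap, at 1.74%, 1.9% and 1.67% in mutants against 1.54%, 1.57% and 1.48% in wildtypes. RPL22 and its paralogue were apart on this scale too. RPL22 took 1.06%, 1.34% and 1.24% in mutants against 0.842%, 0.852% and 0.836% in wildtypes, and RPL22L1 0.358%, 0.362% and 0.34% in mutants against 0.639%, 0.511% and 0.619% in wildtypes.

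Levels of different genes were compared per kb of exon, from the merged exon lengths in the count table (346 to 3569 bases, median 1110). Over the 78 genes the median level was 660 CPM per kb in mutants and 558 CPM per kb in wildtypes, and the upper quartile was 3.22 times the lower in mutants and 3.21 times in wildtypes. Small subunit genes had a median of 789 CPM per kb in mutants and 729 in wildtypes, and large subunit genes 574 in mutants and 533 in wildtypes. Transcripts of these genes thus spanned a wide range of levels. The set includes copied genes and RPL7L1, and not every protein enters the ribosome in a single copy. The level depends on the annotated exon length, with which its rank correlation was -0.552 over the 78 genes, so long annotated ends lower it.

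At the top stood RPS7 and RPL35. RPL35 had 2223, 2676 and 2370 CPM per kb in mutants against 1947, 2191 and 1634 in wildtypes, and RPS7 2067, 2154 and 2207 in mutants against 2187, 2802 and 2148 in wildtypes. Per kb, RPL35 was thus above RPS7 in all 3 mutant libraries and below it in all 3 wildtype libraries. In CPM, which is not divided by exon length, RPL35 was above RPS7 only in mutant replicate 2 (1568 against 1486 CPM). Next came rplp2l, with 2014 ± 32.4 CPM per kb in mutants and 1792 ± 386 in wildtypes, and RPL28, with 1635 ± 61.2 in mutants and 1375 ± 232 in wildtypes (SD, n = 3 each). In wildtypes RPL35 was above rplp2l in replicates 1 and 3 and below it in replicate 2. Among those that followed were RPL26 of the large subunit and RPS14 and RPS25 of the small subunit, at 1319 to 1510 CPM per kb on average in mutants against 1089 to 1317 in wildtypes.

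Near the bottom, the relative rps11l was at 7.27 ± 2.22 CPM per kb in mutants and 6.69 ± 2.41 in wildtypes, and RPL7L1 at 15 ± 1.75 in mutants and 11.4 ± 1.47 in wildtypes. The lowest of the other large subunit genes were RPL36, with 136 ± 15.3 CPM per kb in mutants and 114 ± 12.2 in wildtypes, and RPL38, RPL31 and RPL23, at 157 to 171 in mutants against 148 to 159 in wildtypes. The means of these 3 lay within an SD of each other in wildtypes, though RPL23 was above RPL31 in each of the 6 libraries. Low among the small subunit genes were RPS28, with 212 ± 14.5 CPM per kb in mutants and 171 ± 22.8 in wildtypes, and RPS24, with 236 ± 14.7 in mutants and 238 ± 30.6 in wildtypes (SD, n = 3 each).

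The order of levels was nearly the same in every library. Spearman's rho over the 78 genes was 0.99 to 0.995 between mutant libraries, 0.984 to 0.988 between wildtype libraries and 0.967 to 0.987 between a mutant and a wildtype library. These values share each gene's length and base composition. The SD of the log2 difference between 2 libraries over the genes was 0.128 to 0.187 within mutants, 0.157 to 0.184 within wildtypes and 0.175 to 0.268 across genotypes. The spread of log2 CPM per kb between the 78 members differed between the genotypes by less than the replicate error, with an SD of 1.375 ± 0.0406 in mutants and 1.367 ± 0.0152 in wildtypes (SD, n = 3 each).

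**Figure D4:**
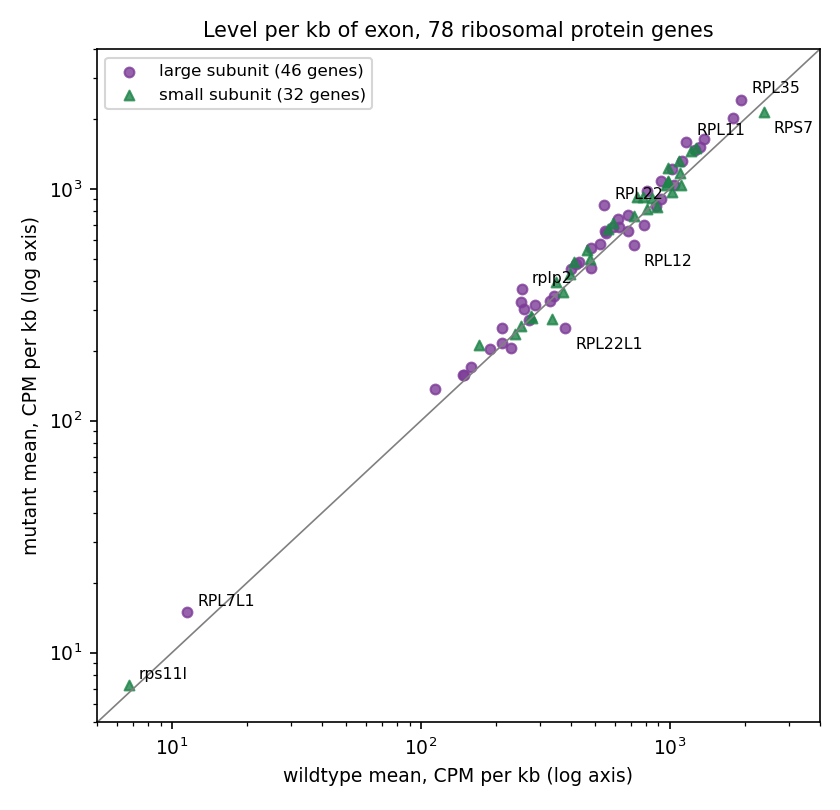
Mean level of 78 ribosomal protein genes in CPM per kb of exon, in ddx41 mutants (vertical, log axis) against wildtypes (horizontal, log axis), with large subunit genes as circles and small subunit genes as triangles. The line marks equal levels; most genes lie near it over a range from rps11l (7.27 in mutants and 6.69 in wildtypes) to RPL35 and RPS7, with RPL22L1 and RPL12 below the line and RPL22, RPL11 and rplp2 above it.

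Some genes that belong to the ribosome are left out by the naming rule. Of 8 tested, among them FAU and its relative faub, which encode a ribosomal protein fused to a ubiquitin-like protein, and RACK1, a scaffold on the small subunit, 0 were called, and all 8 log2 fold changes were positive with a median of 0.335. The gene faub had 32.86, 24.36 and 21.62 CPM in mutants against 15, 9.31 and 18.36 CPM in wildtypes. Mutant libraries were all above wildtype libraries, by a log2 fold change of 0.88 (edgeR adjusted p = 0.17).

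Genes whose messenger RNAs share the pyrimidine tract in mammals, most of them for translation factors, were spread more widely. The list also holds TPT1, NAP1L1, npm1a, npm1b, naca, BTF3 and hnrnpa1a, which are not translation factors. Of 26 tested, edgeR called 0, with 5 higher and 1 lower at an unadjusted p below 0.05 (11.9% and 10.9% of all genes), and limma voom called 4 higher and 1 lower (7.8% and 7.22% of all genes). Their median log2 fold change was 0.032. The ends of the range were genes scarce beside most members, eef2a.2 at -1.14 ± 0.645 and EEF2 at 1.63 ± 0.549 (log2 fold change, SE). EEF2 had 10.32, 41.42 and 41.77 CPM in mutants against 14.36, 5.77 and 10.03 CPM in wildtypes (edgeR adjusted p = 0.118). Mutant replicate 1 of EEF2 lay inside the wildtype range. EEF1D, a subunit of the elongation factor 1 exchange complex, had 38.97, 31.53 and 39.67 CPM in mutants against 66, 71.31 and 61.08 CPM in wildtypes (log2 fold change -0.85 ± 0.24, SE, edgeR adjusted p = 0.0739). EIF4B, an initiation factor, had 81.36, 161 and 131.5 CPM in mutants against 57.97, 83.35 and 68.84 CPM in wildtypes. Its mutant replicate 1 fell inside the wildtype range (edgeR adjusted p = 0.144).

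The mitochondrion has a ribosome of its own, with nuclear genes for its proteins, and some of these rose. Of 73 of its protein genes tested, 4 rose and 0 fell (edgeR adjusted p below 0.05, background 3.34% and 1.99%), with a median log2 fold change of 0.458, and 27 were higher and 0 lower without overlap, against 15.3% and 13.4% of all genes. The largest was MRPS33, a small subunit gene, with 81.6, 118.1 and 130.6 CPM in mutants against 16.79, 16.76 and 23.43 CPM in wildtypes (5.79-fold, edgeR adjusted p = 0.00439). Also past the threshold were mrps31 (3.51-fold) and mrpl9 (2.47-fold). The summed level of the 73 genes was 1200 to 1280 CPM in mutants against 674.3 to 914 CPM in wildtypes. The difference between mitochondrial and cytosolic ribosome genes was not tested.

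**Figure D5:**
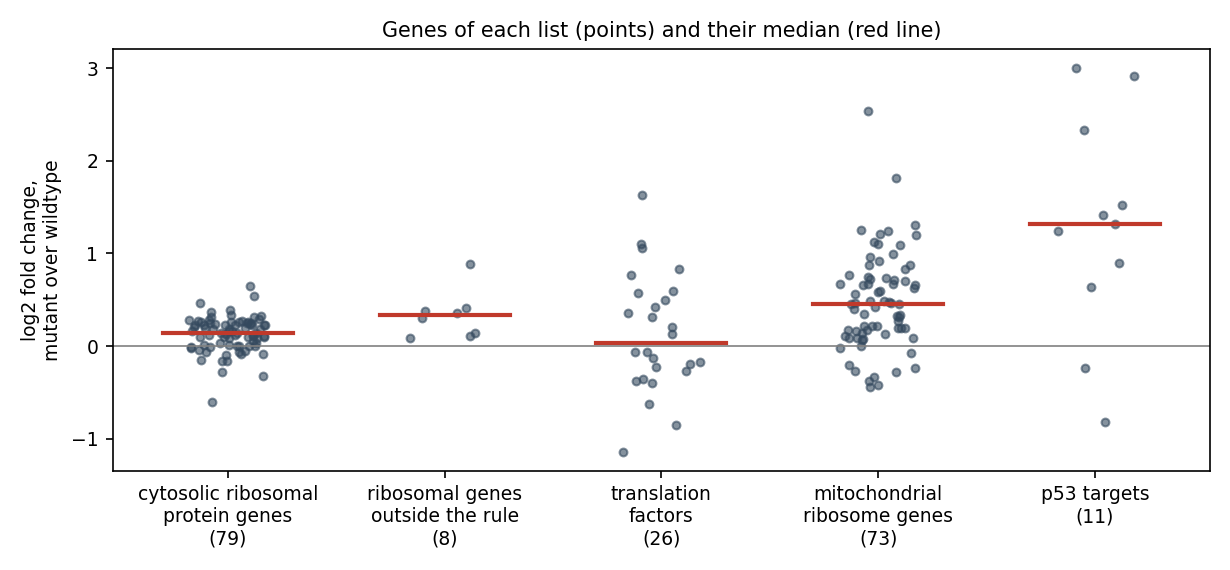
Log2 fold change of ddx41 mutant over wildtype for each tested gene (points) of 5 lists, with the list's median as a red line: 79 cytosolic ribosomal protein genes (median 0.146), 8 ribosomal genes outside the naming rule (0.335), 26 translation factors and other genes with the pyrimidine tract in mammals (0.032), 73 mitochondrial ribosome genes (0.458) and 11 p53 targets (1.32). The cytosolic ribosomal protein genes have the narrowest range, from -0.607 to 0.644, apart from the 8 outside the rule. The lists differ in precision too: the median standard error was 0.241 for the cytosolic ribosomal protein genes, 0.253 for the translation factor list and 0.392 for the mitochondrial ribosome genes.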

How the data were processed

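RNA of cd41-positive cells was extracted with a Zymo microprep kit and made into polyA libraries at BGI, per the labels. The authors counted paired-end fragments per gene with featureCounts 1.5.0-p1 on the Ensembl release 85 annotation of GRCz10, with no option for strand or multiple mapping, per the file headers, so overlapping genes and near-identical copies are uncertain (7 members share more than 10% of their exon bases with other genes). STAR 2.4.2a is named in the submitters' processing notes. The deposited values are raw counts of 6 libraries, all mapped by name, and the exon length per gene. Symbols came from a table of Ensembl gene names (26269 of 32105 genes matched).

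Genes were tested in edgeR 4.0.16 (R 4.3.3) with TMM factors, filterByExpr (minimum count 10, total 15), genotype as the only term, the two-sided quasi-likelihood F test and Benjamini-Hochberg adjustment over 18722 genes. Standard errors are the log2 fold change over the square root of F. CPM use the TMM factors. Levels per kb use the 78 members with at least 10 counts in every library. Shares and ratios have no test. Alternatives were RLE factors, TMM without the members, no mitochondrial genome, other filters, DESeq2 1.42.0, limma 3.58.1 (voom with sample weights), a replicate block, each library left out, and, added after seeing the data, scaling to summed member counts and to library totals. The test was checked on simulated counts. No 2 libraries were alike within counting noise (chi-square per degree of freedom at least 18.3). The members and lists were chosen with earlier results of these data known. Genes named singly were the 6 members with the smallest p, the highest and lowest levels per subunit, the 5S particle, stalk, anaemia and copied genes, and up to 3 genes of each other list. RPS3A, RPL3, RPL39, rpl32, RPS18, rps27a, eef2a.2, mpl and sesn2 were named after their values had been seen. Sequences were not used here. Floors of 3 counts cover counting error only. A few genes are not reported here.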

Additional observations from a re-analysis of the deposited data

How the results depend on the processing

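The count of 0 ribosomal protein genes called in either direction held in edgeR under every scaling, filter and left-out library and in DESeq2; limma voom with sample weights called 1 higher and 1 lower. Over all genes, edgeR's 625 higher and 373 lower became 1297 and 1168 in DESeq2 and 1460 and 1352 in voom. With each library left out they ran from 51 to 1135 higher and from 11 to 832 lower. The fewest came without wildtype replicate 2 and the most without mutant replicate 1. With library totals 572 were lower. The cause was not tested. The replicate numbers do not pair the samples by the labels: same-number libraries deviated together with correlations of 0.224, 0.155 and 0.0875, each library correlating best with its own number. With the replicate number as a block 917 genes were higher and 653 lower, 0 members were called, and the members' median was 0.159. The difference in the share of counts was -0.0312 percentage points over all counts and 0.583 without the mitochondrial genome and globins. The genes near 0 changed sign. RPL23 was at -0.003 scaled to member counts and -0.013 with library totals. RPL5 (ENSDARG00000020197) was at 0.0 without the mitochondrial genome, 0.005 with the 1 CPM filter, 0.01 in voom and at most 0.06 (lowest -0.095) with a library left out. RPLP0 ran from -0.198 to 0.103 with a library left out. RPLP1 was at -0.013 with RLE factors and in DESeq2, -0.018 with no filter, -0.03 in voom, -0.093 scaled to member counts, -0.112 with library totals, and from -0.158 to 0.238 with a library left out.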
